A study of Mus musculus with 18 samples.

Results

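The effect of losing Ppt1 on gene expression was compared between mice of 3 and 5 months. Of the 18 arrays of the series, 12 belong to this comparison, chosen by the genotype and age in their labels: 3 arrays each of Ppt1 knockout and wild-type mice at 3 months, and 3 of each at 5 months. Each of the 4 groups held 1 male and 2 females. The labels give no strain, no allele and no treatment, so what the groups share beyond age and sex is not known here, nor how the gene was disrupted. The other 6 arrays, 3 of knockout and 3 of wild-type mice at 8 months, are described only where they show where a gene went later. Total RNA was hybridised to Affymetrix mouse arrays, on which a gene is read by 1 or more sets of short probes. The central value is the interaction: the log2 difference between knockout and wild type at 5 months minus that difference at 3 months. An interaction above 0 means that the knockout moved up relative to wild type between the ages.

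The product of Ppt1 is a lysosomal thioesterase that cleaves the fatty acid palmitate from proteins on their way to degradation. Its loss causes infantile neuronal ceroid lipofuscinosis, a storage disease in which neurons degenerate. In the brain such diseases are accompanied by a reaction of glia: astrocytes build up intermediate filaments such as glial fibrillary acidic protein, and microglia, the resident macrophages, take on a phagocytic and lysosome-rich state. Interferon-stimulated genes are a further part of innate immune responses in the brain and are switched on together by interferon signalling.

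Ppt1 itself was low in the knockout at both ages. Its brightest probe set read 623, 586 and 627 in wild type and 9.78, 13.1 and 2.36 in the knockout at 3 months, and 543, 607 and 629 against 12.8, 0.879 and 18.5 at 5 months. The groups did not overlap, and all 3 knockout arrays at 3 months lay at or below background, the 95th percentile of 27 bacterial control probe sets, so the signal was at least 21.5-fold lower there. The interaction of this probe set was 0.14 ± 0.30 (standard error; 95% interval -0.49 to 0.77). Of the 4 measured Ppt1 probe sets, 1 differed by only 0.20 ± 0.19 at 3 months and 0.30 ± 0.19 at 5 months, and whether it lies in the disrupted stretch is unknown here.

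The labels name both brain and cochlea as the source. Of 31 cochlear and inner ear genes listed, 27 were on the array and 8 were bright enough to be tested, among them Coch (means 165, 186, 173 and 164 in wild type and knockout at 3 and then 5 months), an abundant matrix protein of the inner ear, while 26 of 27 presynaptic genes on the array were measured. In tissue of many cell types, fewer cells of a type and less RNA per cell cannot be told apart. Whether the 3 arrays of a group are 3 mice is not stated in the labels. The p-values therefore measure the spread between arrays, and part of it may be technical. Array medians lay between 43.17 and 46.09. Measures of RNA integrity moved with the groups. The ratio of 5′ to 3′ signal of actin was 0.504 ± 0.0371 in wild type and 0.529 ± 0.0191 in the knockout at 3 months, and 0.469 ± 0.0494 and 0.441 ± 0.0461 at 5 months (SD, n = 3 each). That of Gapdh was 1.34 ± 0.0363 and 1.37 ± 0.0246 at 3 months, and 1.32 ± 0.0812 and 1.24 ± 0.0687 at 5 months. The lowest ratios belonged to knockout replicate 1 (0.389) and wild-type replicate 3 (0.412) at 5 months.

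At 3 months 453 of 27022 probe sets (1.68%) differed between knockout and wild type, 293 higher (1.08%) and 160 lower (0.592%), by limma with Benjamini-Hochberg adjustment over all probe sets and a threshold of 0.05. At 5 months 872 (3.23%) differed, 606 higher (2.24%) and 266 lower (0.984%). Both ages shared 253 calls, which is 55.8% of the 3-month calls and 29.0% of the 5-month calls. All 253 had the same sign at both ages, 204 higher and 49 lower. The comparisons at each age share no arrays, but they share 1 estimate of spread. The 3-month count was 282 and 269 without wild-type replicates 2 and 3, and 248 and 247 without knockout replicates 1 and 2 of that age. The 5-month count was 486 and 529 without knockout replicates 1 and 2.

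A call at 1 age alone is not a difference between ages, and the interaction itself passed at 15 probe sets (0.0555% of those tested), 13 with a value above 0 (0.0481%) and 2 below (0.0074%). They name 13 genes, with Gfap read by 2 probe sets and 1 probe set annotated to several genes. At an unadjusted p under 0.05 the interaction had 2107 probe sets (7.8%), 1064 above 0 (3.94%) and 1043 below (3.86%). The count rests on how the spread is estimated: with all 18 arrays in the fit, and with no trend of variance on signal, limma called 0, with 1611 and 1986 probe sets at an unadjusted p under 0.05 and lowest adjusted p of 0.1 and 0.202. Both fits change the estimate of spread and not the interaction values, so the 15 probe sets had to keep their sign. Leaving out the arrays in turn gave 7 to 22 calls: 9 without knockout replicate 1 and 8 without knockout replicate 2 at 3 months, 7 and 9 without knockout replicates 1 and 2 at 5 months, and 11 or more without any other. Of the 15 probe sets, 7 passed in all 12 of these fits: both of Gfap, Serpina3n, Sgk1, Homer1, A2m and Mt1.

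Within a genotype, more probe sets changed with age in the knockout than in wild type. Between 3 and 5 months 366 probe sets (1.35%) changed in the knockout, 214 up (0.792%) and 152 down (0.563%). In wild type limma called 0 (0%), with a lowest adjusted p of 0.207 and 1434 probe sets at an unadjusted p under 0.05, against 3994 in the knockout. All 15 probe sets with a called interaction changed in the knockout, and 1 of them, of Sgk1, had a wild-type change of 0.3 or more either way on the log2 scale. Smaller wild-type steps fall under that cut, such as those of Add3 and Gfap given below.

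**Figure D1:**
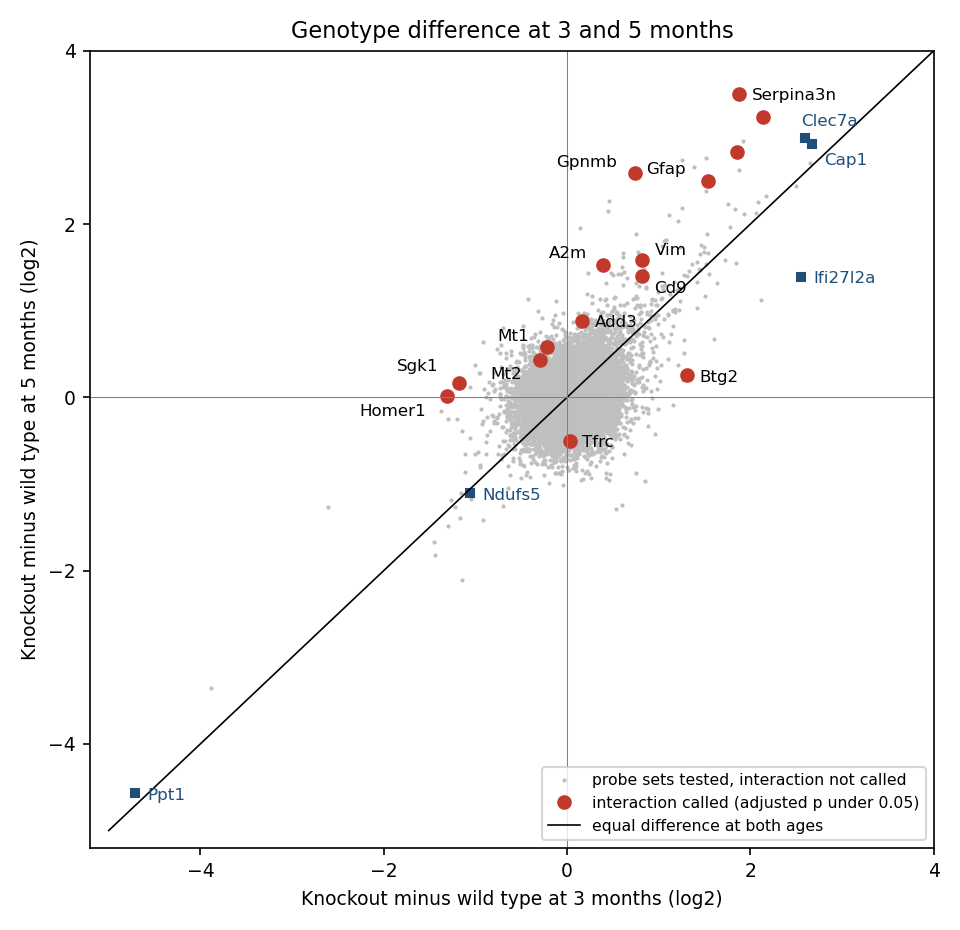
Knockout minus wild type at 3 months (horizontal axis, log2) against the same difference at 5 months (vertical axis, log2) for each of the 27022 probe sets tested, with called interactions named. Gfap, Serpina3n and Gpnmb lie above the diagonal, where the 5-month difference is larger, and Btg2 and Tfrc lie below it.

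Sorted by onset, the probe sets fell into an early and lasting class, a small class that grew or turned, and a large class that passed at 1 age without a called interaction. The early and lasting class, called at both ages with no called interaction, held 247 probe sets of 178 genes, 198 higher and 49 lower. The interval of the interaction lay within 0.5 log2 either way for 105 of them, so a change of that size between the ages was outside the interval for those, while 52 had an unadjusted interaction p under 0.05. Called at 5 months alone without a called interaction were 613 probe sets. For 432 of these the 3-month interval lay within 0.5 log2. Their median absolute difference was 0.18 at 3 months and 0.49 at 5 months. An interval within 0.5 can therefore still hold a 3-month difference as large as the 5-month one. The sign was the same at both ages for 541 of the 613. It was the same for 14986 of the 25950 probe sets called at neither age and with no called interaction. Called at 3 months alone without a called interaction were 197, and for 125 of them the 5-month interval lay within 0.5 log2. Their median absolute difference was 0.52 at 3 months and 0.2 at 5 months, and 172 had the same sign at both ages. The median standard error of the interaction was 0.206 against 0.145 for the difference at 1 age. On simulated data of this design, the interaction test recovered 8% of changes of 0.5 and 47% of changes of 1 on the log2 scale.

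Interferon-stimulated genes were high from 3 months, with nearly the same median difference at 5 months. Of 33 measured members of the list, 24 were higher at 3 months and 21 at 5 months, 20 at both, and none was lower at either age. Over all 12495 genes measured, each by its brightest probe set, 1.48% were higher and 0.68% lower at 3 months, and 3.07% and 1.06% at 5 months. The median difference was 0.97 and then 0.96 on the log2 scale (0.002 and 0.006 over all genes). The interaction was above 0 for 16 of 33, with a median of -0.00 (0.01 over all genes, of which 52.0% lay above 0), and no member passed. Members ranged from -1.16 to 0.89, and for only 5 of 33 did the interval lie within 0.5 log2 either way, so a change of that size in single members was inside most intervals.

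Ifit1, which binds viral RNA that lacks the host's cap, and Cxcl10, a chemokine that attracts T cells, are among the interferon genes that rose most by 3 months. Their RefSeq promoters (assembly GRCm38.p6, 250 bases before the start, 5′ to 3′ along the gene) are shown because 24 of the 33 genes were higher at 3 months. They are chr19:34640639-34640888 on the plus strand for Ifit1 and chr5:92348890-92349139 on the minus strand for Cxcl10. Capitals mark the core of the interferon-stimulated response element, TTTC followed by any 2 bases and TTTC again, searched on both strands.
Ifit1: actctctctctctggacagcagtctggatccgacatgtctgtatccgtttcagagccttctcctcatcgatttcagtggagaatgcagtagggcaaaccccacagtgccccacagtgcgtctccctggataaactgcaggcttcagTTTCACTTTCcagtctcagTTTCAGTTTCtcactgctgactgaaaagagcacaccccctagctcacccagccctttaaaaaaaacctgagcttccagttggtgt
Cxcl10: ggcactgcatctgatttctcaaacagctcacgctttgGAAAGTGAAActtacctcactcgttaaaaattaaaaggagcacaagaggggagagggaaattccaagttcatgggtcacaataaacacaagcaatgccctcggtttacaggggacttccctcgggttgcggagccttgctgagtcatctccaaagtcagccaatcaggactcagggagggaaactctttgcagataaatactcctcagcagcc
Ifit1 has 2 matches, 104 and 85 bases before the start, and Cxcl10 has 1 on the opposite strand, 213 bases before it. Of the 24 interferon genes higher at 3 months 17 had a window in the RefSeq table, and 10 of these (58.8%) held the core, against 3.46% of all 27025 genes with a window. Of all 33 measured members of the list, called or not, 24 had a window and 13 of these (54.2%) held the core. The core thus goes with the list as chosen and does not set the genes called at 3 months apart. A match is a stretch of letters and was not tested as a site.

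Ifit1 read 29.5, 23.7 and 27 in wild type and 115, 135 and 144 in the knockout at 3 months, and 20.3, 40.9 and 22.2 against 180, 124 and 152 at 5 months. Cxcl10 read 17.8, 4.02 and 21 against 130, 114 and 104, and then 3.16, 19.8 and 18.2 against 106, 129 and 150. Every knockout array of both genes lay above every wild-type array of its age, and the knockout arrays of 3 and 5 months overlapped. The interaction was 0.17 ± 0.27 for Ifit1 (95% interval -0.40 to 0.75) and 0.15 ± 0.36 for Cxcl10 (-0.60 to 0.91), intervals that leave room for a change of 0.5 in either direction.

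Within the list single members leaned both ways. Ifi27l2a, a small interferon-induced membrane protein, read 3.44, 6.02 and 22.2 in wild type and 121, 135 and 144 in the knockout at 3 months, then 29.9, 41.2 and 34.5 against 147, 103 and 107. Its wild-type arrays at 5 months all lay above those at 3 months, and its interaction of -1.16 ± 0.31 did not pass (limma adjusted p 0.313). Bst2, a tether of budding virus particles, went from a difference of 1.03 ± 0.16 to one of 1.75 (interaction 0.71 ± 0.22, adjusted p 0.426). Oas2, a sensor of double-stranded RNA, was -0.17 ± 0.21 at 3 months and 0.71 at 5 months, passing at neither age. At 8 months the difference of group means was smaller than at 5 months for 26 of the 33 genes. The same count over all genes is not given here. The knockout arrays of 8 months spread in the list's summed signal, at 4360, 5070 and 5950.

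Other large early differences lay outside the interferon list. Cap1, a regulator of actin turnover and the gene next to Ppt1 in the RefSeq table, read 189, 147 and 253 in wild type and 1261, 1282 and 1387 in the knockout at 3 months, and 151, 166 and 133 against 1257, 1178 and 1266 at 5 months. No array of 1 genotype came near the other at either age, and the interaction was 0.25 ± 0.18 (95% interval -0.14 to 0.63). Ndufs5, a subunit of respiratory complex I, read 2376, 2469 and 2611 against 1183, 1115 and 1254, and then 2534, 2635 and 2422 against 1104, 1164 and 1232. Its knockout level was lower in all arrays and its interaction, -0.05 ± 0.09, had one of the narrowest intervals among the genes named (-0.24 to 0.15). Gabra2, a subunit of the GABA-A receptor, fell by 1.27 ± 0.12 at 3 months and by 1.19 at 5 months, with an interaction of 0.08 ± 0.16 (-0.26 to 0.43). Wdfy1, an endosomal adaptor, fell by 1.30 ± 0.16 and by 1.48, with an interaction of -0.18 ± 0.23. Cap1, Ndufs5, Gabra2 and Wdfy1, and Erdr1 and Mid1 below, were on a list of genes that earlier results of these data had as steady. Steadiness of these genes here is therefore no separate result. The interactions of that list ranged from -0.38 to 1.33, the upper end being Mid1. Erdr1 fell by 1.44 ± 0.14 and by 1.82. Mid1, a ubiquitin ligase on microtubules, fell by 2.61 ± 0.39 at 3 months, while at 5 months 1 wild-type array (67.5, against 569 and 806) lay below all knockout arrays (76.6, 125 and 202), and its interaction of 1.33 ± 0.55 did not pass (adjusted p 0.583).

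Genes of reacting astrocytes were higher at 3 months and higher again at 5 months. Of 22 measured reactive astrocyte genes 7 passed at 3 months and 13 at 5 months, all higher (1.48% and 3.07% of all genes), and the median difference went from 0.41 to 0.84. The interaction was above 0 for 22 of 22 (52.0% of all genes), with a median of 0.51, and 11 had an unadjusted p under 0.05, against 4.93% of all genes measured above 0 at that level. Of these genes 2 passed by their brightest probe set, Gfap and Serpina3n (0.072% of all genes passed above 0 and 0.016% below). The list's summed signal went from 2960 to 3330 in wild type and 5310 to 5770 in the knockout at 3 months, and from 3470 to 3660 and 9450 to 11300 at 5 months. The ranges of the 4 groups were separate. Bright genes such as Gfap, given below, weigh more in this sum than dim ones, so it does not show that the list as a whole moved.

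**Figure D2:**
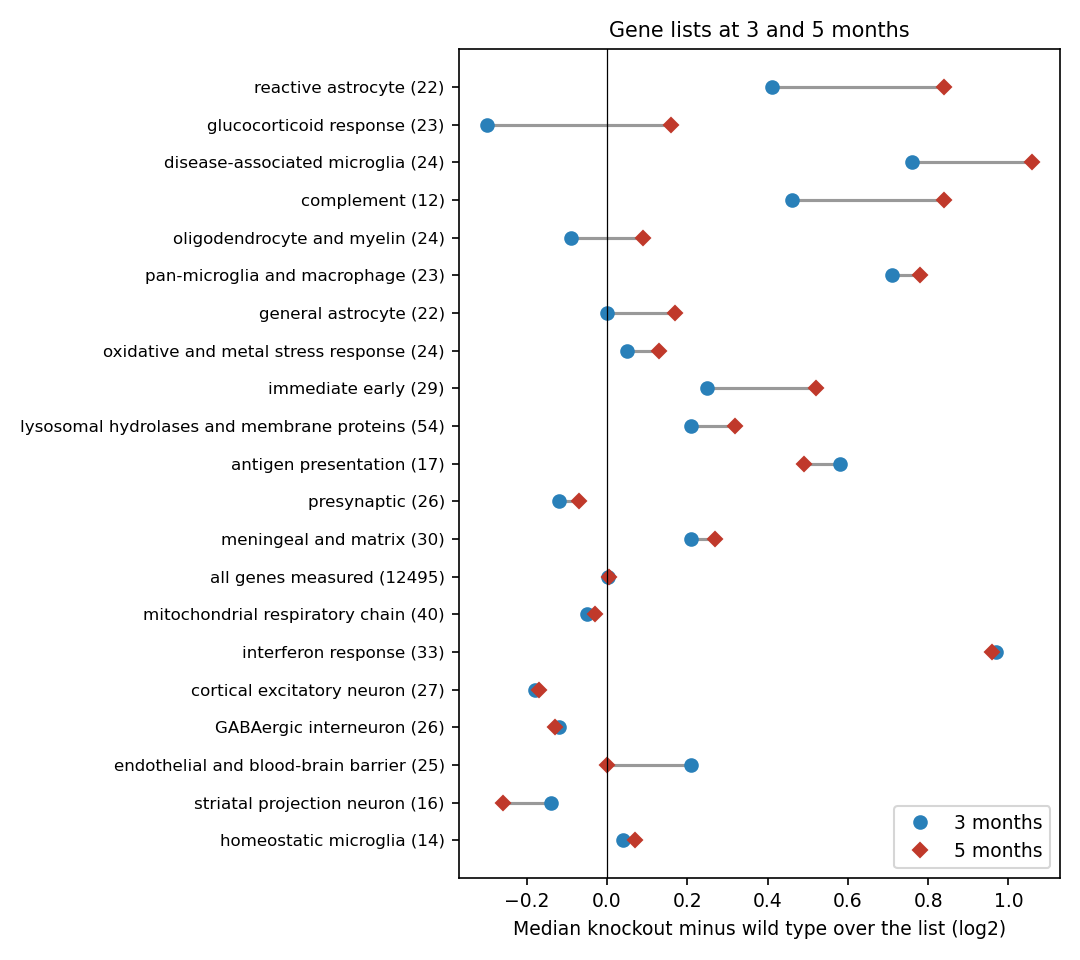
Median difference between knockout and wild type (log2, horizontal axis) at 3 and at 5 months for gene lists, each over its measured genes. The interferon list has nearly the same median at both ages (0.97 and 0.96), the reactive astrocyte list moves from 0.41 to 0.84, and the glucocorticoid list moves from -0.30 to 0.16.

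Gfap, the intermediate filament protein of astrocytes, had the smallest interaction p of all. Its brightest probe set read 640, 606 and 640 in wild type and 1796, 1823 and 1939 in the knockout at 3 months, and 677, 737 and 678 against 4333, 4007 and 3692 at 5 months. In both genotypes every array of 5 months lay above every one of 3 months, by a small step in wild type and a large one in the knockout, and the ratio of knockout to wild type went from 2.90-fold to 5.64-fold. The interaction was 0.96 ± 0.10 (adjusted p 0.00033), and that of the other called probe set 0.98 ± 0.13 (adjusted p 0.00261). A dimmer probe set had 0.93 ± 0.23 and did not pass (adjusted p 0.227). At 8 months the knockout read 6313, 6303 and 4122 and wild type 675, 745 and 729.

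Serpina3n, a secreted protease inhibitor made by reactive astrocytes, read 61.8, 73 and 80.3 against 310, 299 and 304 at 3 months, and 87.4, 70.1 and 47.6 against 1041, 1030 and 719 at 5 months. The groups were separate at each age, and the ratio went from 3.67-fold to 11.3-fold. Its interaction was 1.62 ± 0.22 (adjusted p 0.00367).

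Vim, the intermediate filament protein vimentin, read 462, 477 and 410 against 821, 826 and 771, and then 486, 538 and 504 against 1760, 1513 and 1444. The interaction was 0.77 ± 0.11 (adjusted p 0.00922), lost without knockout replicate 1 of either age (adjusted p 0.0508 at 3 months and 0.0582 at 5 months). The brightest Vim probe set had a smaller interaction of 0.57 and did not pass (adjusted p 0.303), and a further one had 0.64 ± 0.14 (adjusted p 0.126). A2m, a broad protease inhibitor that is not on the list, was a little above wild type at 3 months. The knockout read 209, 232 and 259 against 154, 175 and 195 in wild type, without overlap. A2m was far above wild type at 5 months, at 454, 504 and 511 against 172, 132 and 177. Its 3-month difference of 0.39 ± 0.12 did not pass (adjusted p 0.117) and its interaction of 1.14 ± 0.16 did (adjusted p 0.00614).

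Other reactive astrocyte genes leaned the same way without passing. S100a6, a calcium-binding protein, went from a difference of 0.78 ± 0.12 to 1.68, with an interaction of 0.90 ± 0.17 (adjusted p 0.0534). Lcn2, an iron-carrier protein, was 25.9, 30.1 and 0.738 in wild type and 28.7, 22.5 and 31.5 in the knockout at 3 months, and 32.8, 39.6 and 1.18 against 191, 138 and 112 at 5 months. The groups overlapped at 3 months and were separate at 5 months, and the interaction of 1.71 ± 0.52 did not pass (adjusted p 0.414). Among 22 general astrocyte genes, 1 passed at 3 months and 8 at 5 months, all higher (1.48% and 3.07% of all genes), with medians of 0.00 and 0.17. Aqp4, the water channel of astrocyte end-feet, went from 0.51 ± 0.09 to 1.04, and Slc1a2, the main glutamate transporter, from -0.05 ± 0.06 to 0.29 (interactions 0.54 ± 0.12 and 0.34 ± 0.08, adjusted p 0.18 and 0.227).

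The disease-associated and pan-microglial lists were higher in the knockout at both ages, and the homeostatic list was near wild type. The 24 measured genes of disease-associated microglia had 12 calls at 3 months and 19 at 5 months, all higher (1.48% and 3.07% of all genes), with medians of 0.76 and 1.06. Their interaction was above 0 for 23 (52.0% of all genes), with a median of 0.41, and 13 had an unadjusted p under 0.05 above 0 (4.93% of all genes). Pan-microglial and macrophage genes had 10 and 14 calls of 23, all higher, with medians of 0.71 and 0.78. Their interaction was above 0 for 20 of 23 (52.0% of all genes), with a median of 0.15, and none was at an unadjusted p under 0.05. The summed signal of this list was 4890 to 5260 in the knockout at 3 months and 6350 to 6600 at 5 months. Wild type had 2740 to 2900 and 2800 to 3420. By this sum, in which bright genes weigh more than dim ones, the knockout arrays of 5 months lay above those of 3 months here too. Homeostatic microglial genes had 2 calls of 14 at each age, with medians of 0.04 and 0.07 and a median interaction of -0.11. The difference between these lists was not tested.

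Gpnmb, a transmembrane protein of phagocytes and lysosomal stress, had the largest called interaction. It read 40.7, 42.9 and 34.2 in wild type and 48.3, 87 and 102 in the knockout at 3 months, and 36.8, 21 and 42.6 against 240, 336 and 258 at 5 months. The 3-month difference of 0.74 ± 0.21 did not pass (adjusted p 0.0955), the 5-month one was 2.59, and the interaction was 1.84 ± 0.30 (adjusted p 0.0198). That call was lost in 6 of the 12 fits that left out 1 array, with an adjusted p of 0.0576 without wild-type replicate 1, 0.0556 without wild-type replicate 2, 0.0843 without knockout replicate 1 and 0.0594 without knockout replicate 2 at 3 months, and 0.0929 and 0.108 without knockout replicates 1 and 2 at 5 months. It was also lost with no filter (0.0663), with a pseudocount of 1 (0.0605), with the actin ratio as covariate (0.0586) and without the 2 arrays of lowest actin ratio (0.0877), as well as with all 18 arrays (0.72) and no variance trend (0.22). At 8 months the knockout read 1506, 1459 and 294 against 24.6, 35.4 and 37.2 in wild type.

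Cd9, a tetraspanin of the microglial disease state, read 456, 412 and 391 against 746, 736 and 770, and then 414, 385 and 368 against 1088, 1080 and 997. Its groups were separate, with a small step between the ages, and the interaction of 0.59 ± 0.10 (adjusted p 0.0354) passed in 1 of the 12 fits with an array left out. Cd68, a lysosomal glycoprotein of macrophages, read 72.4, 73.7 and 74.8 against 173, 175 and 186, and then 57.2, 76.5 and 49.7 against 315, 303 and 312. All 3 knockout arrays of 5 months lay above those of 3 months, and the interaction of 0.98 ± 0.18 fell just outside the threshold (adjusted p 0.0554). Clec7a, a receptor for fungal glucans, was already far above wild type at 3 months, at 119, 119 and 151 against 5.13, 2.15 and 19.8, and its interaction was 0.39 ± 0.37. Cst7, an inhibitor of cysteine proteases, had all wild-type arrays at or below background and was at least 2.39-fold higher at 3 months and at least 4.46-fold at 5 months on the scale of signal plus 16. Its interaction of 0.73 ± 0.29 did not pass (adjusted p 0.561).

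One further called probe set, annotated to several genes and therefore not named, read 141, 180 and 128 against 692, 690 and 741, and then 185, 186 and 168 against 2124, 1887 and 1496. It was separate from wild type at both ages, and its interaction was 1.09 ± 0.17 (adjusted p 0.0123). Of 12 measured complement genes 4 passed at 3 months and 7 at 5 months, all higher (1.48% and 3.07% of all genes), with medians of 0.46 and 0.84. The interaction of complement genes was above 0 for 10 of 12 (52.0% of all genes), with none called. Lists leave out probe sets annotated to several genes, so the probe set above was counted in no list. Itgb2, the common chain of the leukocyte integrins that bind complement fragments, went from 0.50 ± 0.19 to 1.41 (interaction 0.91 ± 0.27, adjusted p 0.38).

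**Figure D3:**
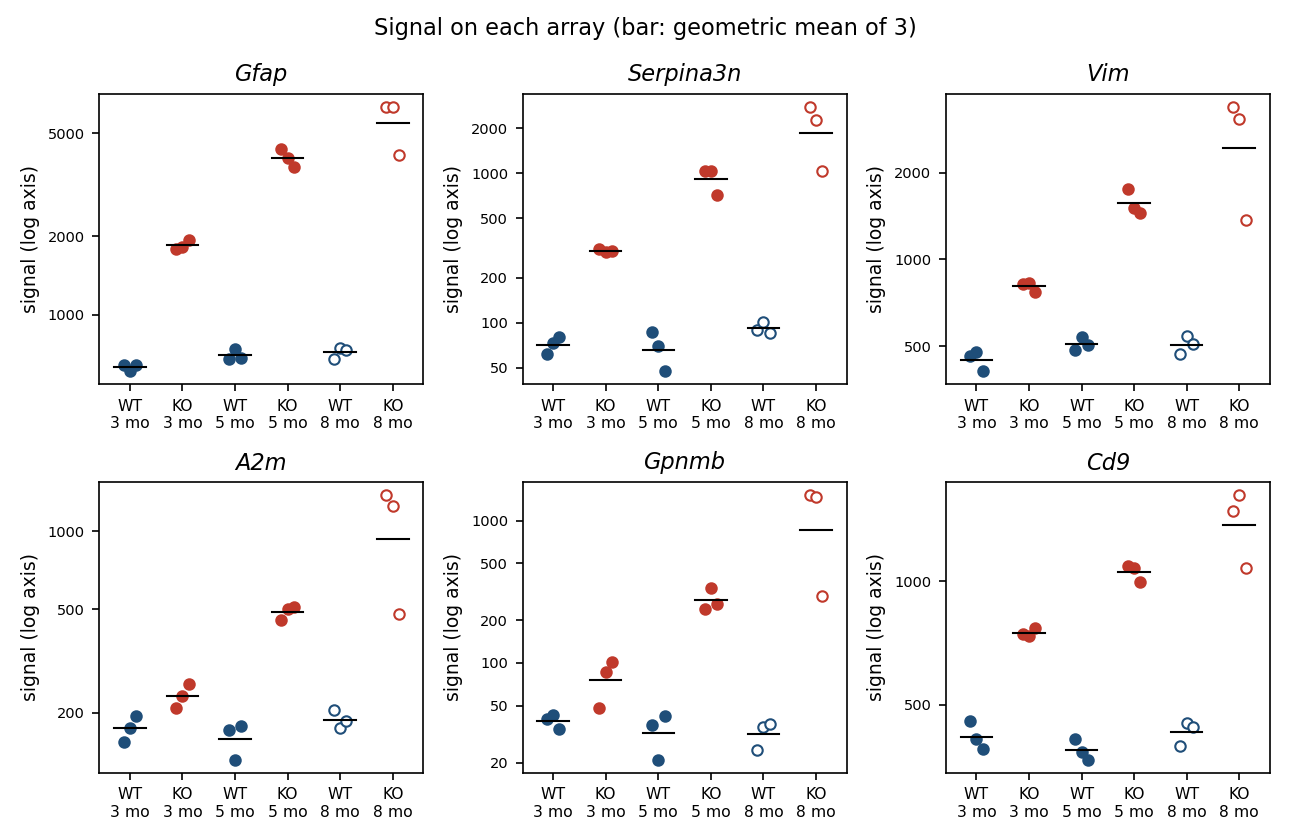
Signal of each array (log axis) for glial genes, in wild type and knockout at 3, 5 and 8 months, with a bar at each group's geometric mean. Wild-type Gfap stays between 606 and 745 at all ages while the knockout steps from at most 1939 at 3 months to at least 3692 at 5 months.

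Lysosomal genes were higher in part at 3 months and in larger number at 5 months. Of 54 measured, 11 passed at 3 months, all of them also at 5 months, and 26 passed at 5 months, none lower (1.48% and 3.07% of all genes were higher). The median difference was 0.21 and then 0.32. The interaction was above 0 for 38 of 54 (52.0% of all genes), none passed, and 13 had an unadjusted p under 0.05 above 0 (4.93% of all genes). Ctsd, the protease cathepsin D, read 883, 908 and 906 against 1342, 1390 and 1427, and then 924, 985 and 965 against 1924, 2150 and 2012. Its groups were separate and the knockout of 5 months lay above that of 3 months, with an interaction of 0.45 ± 0.08 at the edge of the threshold (adjusted p 0.0525). Lamp1, a major membrane protein of the lysosome, went from 0.17 ± 0.06, not passing, to 0.53 (interaction 0.36 ± 0.08, adjusted p 0.146). Tpp1, a lysosomal peptidase whose loss causes another ceroid lipofuscinosis, went from 0.21 ± 0.06, not passing, to 0.42 (interaction 0.21 ± 0.09, adjusted p 0.591). The enzymes that attach or remove palmitate showed no such trend: of 27 measured, 1 was lower at 3 months, Zdhhc5, a palmitoyltransferase (-0.64 ± 0.12), and none passed at 5 months.

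Another set of genes lay below wild type at 3 months and near or above it at 5 months. Glucocorticoid-responsive genes had 6 members lower and 1 higher of 23 at 3 months, and 2 lower and 3 higher at 5 months, with a median difference of -0.30 and then 0.16. Over all genes 0.68% were lower and 1.48% higher at 3 months, and 1.06% and 3.07% at 5 months. The interaction was above 0 for 21 of 23 (52.0% of all genes), with a median of 0.50. At an unadjusted p under 0.05 there were 12 above 0 and 1 below, against 4.93% and 3.07% of all genes. After adjustment 3 passed, Sgk1, Mt1 and Mt2, against 0.072% of all genes above 0 and 0.016% below. The list's summed signal was 18600 to 20300 in wild type and 13700 to 15900 in the knockout at 3 months, 15800 to 18800 and 19300 to 21400 at 5 months, and 12800 to 13500 in wild type at 8 months. By this sum, knockout arrays were below wild type at 3 months and above it at 5 months. Bright genes such as Mt1 and Mt2, given below, weigh more in it than dim ones. The sum therefore does not show that the list as a whole rose above wild type. At 3 months 21 of the 23 genes were lower in the knockout. Wild type at 8 months was lower than at both younger ages for 20 of the 23 genes, so wild type was not level over the ages either.

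Sgk1, a kinase induced by glucocorticoids, read 2111, 2167 and 2082 in wild type and 994, 800 and 1006 in the knockout at 3 months, and 1399, 1253 and 1662 against 1696, 1910 and 1270 at 5 months. The groups were separate at 3 months and overlapped at 5 months. The difference was -1.18 ± 0.12 and then 0.16 ± 0.12, and the interaction of 1.34 ± 0.17 (adjusted p 0.00261) was made up of a rise of 0.78 in the knockout and a change of -0.56 in wild type. Wild type at 8 months read 729, 949 and 1068, which overlaps the knockout of 3 months.

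Homer1, a scaffold of the postsynaptic density that also has a short activity-induced form, had a called interaction by 1 probe set. That probe set read 464, 720 and 630 against 200, 258 and 238 at 3 months, and 754, 605 and 646 against 651, 652 and 724 at 5 months. The groups were separate at 3 months and overlapped at 5 months, and the interaction was 1.33 ± 0.17 (adjusted p 0.00261). The other 5 Homer1 probe sets were below wild type at 3 months too, by smaller differences of between -0.28 and -0.66. Their interactions lay between 0.12 and 0.37, none called. Which transcript the called probe set reads is not known here. It was low in wild type at 8 months too, at 153, 208 and 142.

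Mt1 and Mt2, metallothioneins that bind zinc and copper and respond to metals, glucocorticoids and oxidative stress, were slightly below wild type at 3 months and above it at 5 months. Their RefSeq promoters (GRCm38.p6, 250 bases before the start, plus strand) lie at chr8:94178839-94179088 for Mt1 and chr8:94172368-94172617 for Mt2 and are shown because the neighbouring genes moved together. Capitals mark the metal response element core in the forms TGCACNC and TGCGCNC, on both strands.
Mt1: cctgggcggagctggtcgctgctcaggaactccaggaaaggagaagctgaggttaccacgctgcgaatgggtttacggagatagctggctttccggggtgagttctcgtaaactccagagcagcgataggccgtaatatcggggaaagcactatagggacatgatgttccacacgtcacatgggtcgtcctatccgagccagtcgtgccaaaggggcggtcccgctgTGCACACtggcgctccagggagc
Mt2: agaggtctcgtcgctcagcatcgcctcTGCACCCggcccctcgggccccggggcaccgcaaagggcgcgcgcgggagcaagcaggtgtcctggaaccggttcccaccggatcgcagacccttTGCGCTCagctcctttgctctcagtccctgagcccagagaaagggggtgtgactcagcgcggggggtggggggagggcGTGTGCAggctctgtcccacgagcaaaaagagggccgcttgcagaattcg
Mt1 has 1 match, 23 bases before the start, and Mt2 has 3, at 223, 128 and 50 bases. Of all 27025 genes with a window, 11.8% hold the first form and 14.0% the second, so the match is common.

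Mt1 read 4746, 4297 and 5520 in wild type and 4304, 3997 and 4172 in the knockout at 3 months, and 4193, 4294 and 4520 against 6700, 6466 and 6277 at 5 months. Mt2 read 2366, 2429 and 2723 against 2124, 1849 and 2145, and then 2210, 2260 and 2594 against 3343, 3277 and 2908. At 3 months neither difference passed (-0.22 ± 0.07 and -0.30 ± 0.08), and at 5 months all knockout arrays of both genes lay above all wild-type arrays. The interaction was 0.79 ± 0.10 for Mt1 (adjusted p 0.00288) and 0.73 ± 0.11 for Mt2 (adjusted p 0.0162), the latter lost in 5 of the 12 fits with an array left out: without wild-type replicate 3 (adjusted p 0.0621) or knockout replicate 2 (0.0706) at 3 months, and without wild-type replicate 1 (0.0675) or knockout replicate 1 (0.0929) or 2 (0.0775) at 5 months. The genes are similar in sequence, so their probe sets may read part of each other's signal. Mt3, the metallothionein of the brain, was lower at 3 months (-0.32 ± 0.06) and level at 5 months (0.01), with an interaction of 0.34 ± 0.09 (adjusted p 0.236).

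Immediate early genes, which neurons and glia transcribe within minutes of a stimulus, had 7 of 29 members higher at 3 months and 13 at 5 months (1.48% and 3.07% of all genes), 5 of them at both, with medians of 0.25 and 0.52. Their interactions leaned both ways, 18 of 29 above 0 (52.0% of all genes), with a median of 0.12. Wild-type replicate 1 at 5 months stood apart in the summed signal of the list, at 8950 against 6480 and 6620, and the median interaction was 0.32 without it and 0.01 without wild-type replicate 3 of that age. Egr1, a zinc-finger factor, went from 0.21 ± 0.11 to 0.91 and Fosl2, a partner of Jun, from -0.38 ± 0.18 to 0.61 (interactions 0.70 ± 0.16 and 0.99 ± 0.25, adjusted p 0.177 and 0.236). Fos and Arc, named after their values were seen as the best-known members, were higher at both ages, at 1.46 and 1.63 and then 1.76 and 1.32.

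Btg2, an antiproliferative gene induced by p53 and by neuronal activity, was the early gene with a called interaction below 0. Its RefSeq promoter (GRCm38.p6, chr1:134079156-134079405, minus strand, 5′ to 3′ along the gene) is shown with the cAMP response element TGACGTCA in capitals, which reads the same on both strands.
Btg2: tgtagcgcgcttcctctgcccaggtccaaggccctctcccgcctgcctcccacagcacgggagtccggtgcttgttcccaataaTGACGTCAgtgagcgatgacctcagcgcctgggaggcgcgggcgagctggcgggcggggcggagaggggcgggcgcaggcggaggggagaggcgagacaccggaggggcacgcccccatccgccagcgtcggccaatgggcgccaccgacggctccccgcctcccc
The match lies 166 bases before the start, and 1.77% of all genes with a window hold 1. Btg2 read 116, 98.9 and 76.2 in wild type and 296, 241 and 249 in the knockout at 3 months, and 122, 120 and 107 against 141, 153 and 130 at 5 months. The knockout arrays were above wild type at both ages, but close to it at 5 months, and the difference went from 1.31 ± 0.13 to 0.25 ± 0.13. The interaction of -1.06 ± 0.18 (adjusted p 0.028) passed in 3 of the 12 fits with an array left out and had an adjusted p of 0.138 without knockout replicate 1 at 3 months. A dimmer Btg2 probe set had -0.23 ± 0.30.

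Tfrc, the transferrin receptor that brings iron into cells, was level at 3 months and lower at 5 months. It read 825, 928 and 892 in wild type and 844, 907 and 946 in the knockout at 3 months, and 837, 888 and 904 against 580, 650 and 614 at 5 months. The 3 knockout arrays of 5 months lay below all other arrays of the 4 groups. The interaction was -0.53 ± 0.09 (adjusted p 0.0278). It passed in 2 of the 12 fits with an array left out, with an adjusted p of up to 0.099 (without knockout replicate 1 at 3 months), and not after median centring (adjusted p 0.0561). Other Tfrc probe sets had -0.32 ± 0.23 and -0.12 ± 0.29, and at 8 months the knockout read 821, 770 and 552 against 895, 709 and 745, so the groups overlapped again.

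Add3, an adducin that caps actin filaments at the membrane, read 990, 878 and 939 against 1143, 958 and 1050, and then 678, 798 and 833 against 1524, 1371 and 1389. It overlapped at 3 months and was separate at 5 months, with an interaction of 0.72 ± 0.12 (adjusted p 0.0246). All wild-type arrays of 5 months lay below those of 3 months, so a fall in wild type is part of this value. The call was lost in 6 of the 12 fits with an array left out, with an adjusted p of up to 0.108 (without knockout replicate 1 at 5 months), and 3 other Add3 probe sets had interactions between -0.22 and 0.09.

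**Figure D4:**
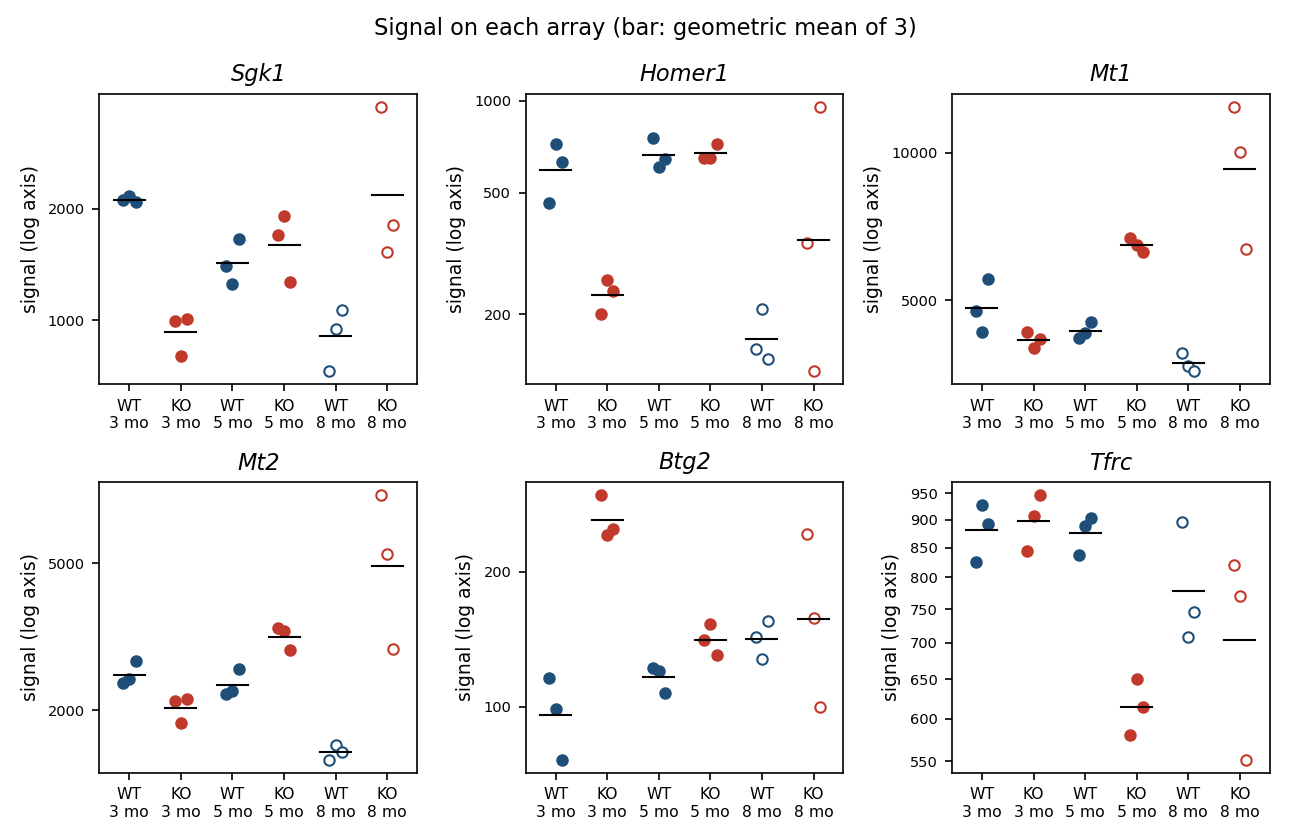
Signal of each array (log axis) for genes outside the glial lists, in wild type and knockout at 3, 5 and 8 months, with a bar at each group's geometric mean. Sgk1 and Homer1 are low in the knockout at 3 months and overlap wild type at 5 months, and Tfrc is low in the knockout at 5 months.

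Genes below the threshold with the smallest p on the lower side included Pde10a, a phosphodiesterase of striatal projection neurons. It read 909, 975 and 755 against 980, 885 and 833 at 3 months, and 1012, 924 and 1281 against 638, 629 and 640 at 5 months. The groups overlapped at 3 months and were separate at 5 months, and the interaction of -0.76 ± 0.15 did not pass (adjusted p 0.0691; 0.0349 to 0.571 over the alternatives). Cacna2d1, an auxiliary subunit of calcium channels, had -0.86 ± 0.18 (adjusted p 0.0873). Sh3pxd2b, Snrpb2, Rad21, Pla2g4e, Ankrd45 and Abcb6 had interactions between -1.63 and -0.62 with adjusted p between 0.146 and 0.192. The striatal list held 3 lower of 16 at 5 months (1.06% of all genes) and none at 3 months (0.68%). Its medians were -0.14 at 3 months and -0.26 at 5 months, with no called interaction.

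By each gene's brightest probe set, no neuronal or synaptic list had a called interaction, while a dimmer probe set of Homer1 passed as given above. The 26 measured presynaptic genes had no call at either age, medians of -0.12 and -0.07, and 26 of 26 had an interaction interval within 0.5 log2 either way. Of 22 postsynaptic genes 1 was higher and 2 were lower at each age, and the interaction interval lay within that bound for 11. Their interactions ranged from -0.59 to 0.96, with 2 above 0 and 2 below at an unadjusted p under 0.05. The interval lay within the bound for 39 of 40 genes of the mitochondrial respiratory chain, which had no call at either age. Cortical excitatory genes had 2 lower and 1 higher of 27 at 3 months and 3 lower at 5 months, with no gene called at both ages. GABAergic genes had 4 lower of 26 at each age, 3 of them at both. Over all genes 0.68% were lower and 1.48% higher at 3 months, and 1.06% and 3.07% at 5 months. Tbr1, a transcription factor of deep cortical layers, fell by 0.51 ± 0.14 without passing at 3 months and by 0.76 at 5 months, with an interaction of -0.25 ± 0.19. Npy, a peptide of interneurons, was lower at 3 months (-0.35 ± 0.07) and not at 5 months (-0.04), with an interaction of 0.31 ± 0.10 (adjusted p 0.435). Oligodendrocyte and myelin genes had a median of -0.09 and then 0.09. Their interaction was above 0 for 20 of 24 (52.0% of all genes), with a range of -0.73 to 0.48. At an unadjusted p under 0.05 there were 7 above 0, among them Cnp (0.38 ± 0.10) and Mobp (0.33 ± 0.09), and 1 below, and none passed. Over all genes 4.93% lay above 0 and 3.07% below at that level.

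Among genes called at 5 months alone, the largest rises included genes of macrophages and astrocytes. S100a4, a calcium-binding protein of motile cells, read 11.4, 8.37 and 29.4 in wild type and 23.9, 31.3 and 25.3 in the knockout at 3 months, and 3.9, 4.63 and 10.1 against 109, 96 and 70.5 at 5 months. All wild-type arrays of 5 months were at or below background, which makes the signal at least 3.48-fold higher there on the scale of signal plus 16. Its interaction of 1.82 ± 0.36 did not pass (adjusted p 0.0742). Ms4a7, a membrane protein of macrophages, Aspg, an asparaginase, Cebpd, a stress-induced transcription factor, and Cd44, a hyaluronan receptor, rose by between 1.42 and 1.88 at 5 months. Their interactions lay between 0.82 and 1.13, with adjusted p between 0.232 and 0.478. The largest falls called at 5 months alone were Yipf2 (-1.24), Tmem40 (-1.05), Aff3 and Ankrd45 (-0.93 each), and their interactions did not pass. Of genes called at 3 months alone, Tmod2, a neuronal tropomodulin, fell by 1.20 ± 0.19 and differed by -0.26 at 5 months (interaction 0.94 ± 0.28, adjusted p 0.38). The transcript Gm19439 fell by 1.06 ± 0.17 and differed by 0.11 at 5 months (interaction 1.17 ± 0.23, adjusted p 0.0724).

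The markers of cells outside the parenchyma moved as follows beside these results. Of 4 measured blood genes, 0 were called at either age and the interaction was below 0 for all, with a median of -0.46 and summed signals of 134 to 267 and 172 to 250 in wild type and knockout at 3 months, and 161 to 483 and 132 to 249 at 5 months. Of 30 meningeal and matrix genes 1 was higher at 3 months and 5 at 5 months (1.48% and 3.07% of all genes), with summed signals of 13900 to 15000 and 13900 to 15900, and then 12900 to 14800 and 16300 to 16800. Endothelial genes had 3 higher and 2 lower of 25 at 3 months (1.48% and 0.68% of all genes), and 2 higher and none lower at 5 months (3.07% and 1.06%). Cldn5, the endothelial tight-junction protein, differed by 0.61 ± 0.12 and then -0.00 (interaction -0.61 ± 0.17, adjusted p 0.362), and Mfsd2a, a lipid transporter of the blood-brain barrier, by -0.93 ± 0.13 and then -0.31 (interaction 0.62 ± 0.18, adjusted p 0.389). With the actin ratio as a covariate the interaction had 15 calls, 12 of them shared and Gpnmb, Add3 and Btg2 lost. Without the 2 arrays of lowest actin ratio it had 9, of which 8 were shared. Both alternatives were added after the data were seen, and the part of blood, meninges and RNA integrity in the single results was not otherwise tested.

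At 8 months, on arrays the fit did not use, the difference was larger again for most of the called probe sets above 0, but not on every array. The knockout group of 8 months held 2 males and 1 female, unlike all other groups, and the means below were not adjusted for sex. Of the 13 probe sets with a called interaction above 0, all 13 had a knockout mean above wild type at 8 months and 11 had a larger difference than at 5 months. The exceptions were Add3 (0.51 against 0.88) and the probe set of several genes (3.04 against 3.23). The same counts over all probe sets are not given here. For 11 of the 13, all but Sgk1 and Homer1, knockout replicate 3 at 8 months was the lowest of its group. That array, of a male, lay at the level of 5 months for Gfap (4122, against 3692 to 4333) and Gpnmb (294, against 240 to 336). Its summed signal of reactive astrocyte genes was 10700, against 9450 to 11300 at 5 months. Homer1 is among the 11, but its knockout level was lower at 8 months in 2 of 3 arrays (343, 130 and 957) than at 5 months, and its wild-type arrays read between 142 and 208.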

How the data were processed

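The authors deposited 1 linear intensity per probe set and array. How the scanner data became these intensities, by which software and scaling, is not given in the sources used here. The trimmed mean (2% off each end) was 150 on all 18 arrays, which shows a common scaling, and no 2 arrays were identical. With 3 arrays in a group, their number limits the precision. The analysis scale was log2(signal + 16), on which a fold understates changes of dim genes. Leaving out 64 control probe sets and the dimmest 40% gave 27022 to test, down to a mean log2 value of 5.36. The model had 4 groups and a sex term on 12 arrays (limma 3.58.1, R 4.3.3: lmFit, eBayes with variance trend, two-sided tests, Benjamini-Hochberg over all 27022, threshold 0.05), with 7 residual and 11 prior degrees of freedom. Errors are standard errors unless marked SD. It was checked on simulated data.

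Of 34945 probe sets with 1 symbol in the platform annotation, 34741 matched RefSeq (GRCm38.p6) by Entrez identifier and 0 symbols were updated. Among tested probe sets 22963 had 1 symbol, 570 several and 3489 none. Lists used each gene's brightest probe set with 1 symbol. Genes were named by rule: Ppt1, called interactions (up to 15 each way, filled to 10 by the smallest p), the 12 largest changes each way at 3 months and at 5 months alone, and per list 3 members with the smallest interaction p, leaving out sex-specific genes of the sex chromosomes. The comparison, members, lists and settings were chosen with earlier results of these data known. Alternatives changed the arrays, sex term, normalization, pseudocount, filter, variance model, array weights and probe sets, or left out an array.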

Additional observations from a re-analysis of the deposited data

Results flagged for a closer look

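The difference between knockout and wild type differed between 3 and 5 months, by the interaction test of limma with adjustment over all probe sets, for 15 probe sets. Above 0 were Gpnmb (1.84 on the log2 scale), Serpina3n (1.62), Sgk1 (1.34), Homer1 (1.33), A2m (1.14), a probe set annotated to several genes (1.09), Gfap by 2 probe sets (0.98 and 0.96), Mt1 (0.79), Vim (0.77), Mt2 (0.73), Add3 (0.72) and Cd9 (0.59). Below 0 were Btg2 (-1.06) and Tfrc (-0.53). Groups of 3 arrays are too small for a test of outlying arrays.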

How the results depend on the processing

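The 15 called interactions kept their sign in all alternatives that tested them. Alternatives that change only the estimate of spread or the filter leave the interaction values as they are, so the sign could not turn there. Their count, 15, was 0 with all 18 arrays and 0 with no variance trend, 31 with no sex term, 23 with median centring, 28 with a pseudocount of 64, 28 with array weights and 25 with 1 probe set per gene, and 7 to 22 with an array left out. It was 19 with quantile normalization and 10 with no filter. Of the alternatives added after the data were seen, the 15 arrays without the 8-month knockout gave 26, leaving out the 2 arrays of lowest actin ratio 9, and the actin ratio as covariate 15. The 3-month count of 453 was 258 with all 18 arrays, 233 with no variance trend and 247 to 552 with an array left out. The 5-month count of 872 was 485 with no variance trend, 486 to 930 with an array left out and 429 without the 2 arrays of lowest actin ratio. The 247 probe sets called at both ages with no called interaction became 155 with no variance trend and 169 to 257 with an array left out. The causes of these shifts were not tested. The median interaction of the reactive astrocyte list, 0.51, ranged from 0.37 to 0.57, that of the disease-associated microglia list from 0.35 to 0.51, that of the glucocorticoid list from 0.36 to 0.57 and that of the interferon list from -0.16 to 0.08. No paired analysis was possible because the numbers in the labels differ for all samples and no 2 groups share one. The interaction had a standard error of 0.52 for Lcn2, which is near background in wild type, and 0.55 for Mid1, whose wild-type arrays of 5 months disagree.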
